A study of Gallus gallus with 9 samples.

Results

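Small leucine-rich proteoglycans are secreted proteins built on a curved stack of leucine-rich repeats, and most carry keratan, chondroitin or dermatan sulfate chains. They bind collagen fibrils and limit their lateral growth, and in the cornea keratocan and lumican are known for keeping stromal fibrils thin and evenly spaced, which transparency requires. The 9 genes described here are the chick genes KERA, LUM, DCN, OGN, EPYC, FMOD, PRELP, OMD and ASPN, taken as a named list of family members. The deposited entries were matched by gene number or transcript accession to a RefSeq gene table, and 8 of the 9 genes had an entry, out of 14080 genes with one. No gene of that table has the symbol ASPN, so asporin was not analysed here under that name. The gene the table names BGN lies between ECM2 and OMD, the place of ASPN in mammals, and whether it is asporin was not tested. All 8 passed the filter on low counts.

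The 9 RNA-seq libraries come from chick embryos, 3 per stage. Embryonic day 3 (E3) is represented by periocular neural crest and day 5 (E5) by corneal endothelium, while the day 7 (E7) samples hold corneal endothelium and keratocytes together. Periocular crest cells migrate toward the lens and form first the corneal endothelium, the inner monolayer, and then the keratocytes, the fibroblasts of the stroma. The labels give no strain, treatment or number of embryos per library and do not say that libraries came from separate dissections, so the p-values cover the spread among these libraries only, and that spread may be technical. In bulk tissue, fewer cells of a type and less RNA per cell cannot be told apart.

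Library totals ran from 9874339 to 23205388 expected counts, lowest at E7. A library of each corneal group went against its label. E5 library 3 correlated at 0.975 and 0.981 with E7 libraries 1 and 2 but at 0.941 and 0.948 with E5 libraries 1 and 2, and E7 library 3 correlated at 0.985 and 0.981 with E5 libraries 1 and 2 but at 0.926 and 0.937 with E7 libraries 1 and 2 (Pearson's r over genes on the log2(CPM + 1) scale; genes are no independent replicates). Results are therefore given as labelled and again without E5 library 3 and E7 library 3, and the 6 corneal libraries were also compared together with E3. That contrast sets the mean of the E5 and E7 coefficients against E3, with the spread taken within the labelled groups, so it still uses the labels. With the 6 fitted as 1 group, edgeR gave log2 fold changes of 6.09 for KERA (adjusted p = 0.000105) and 1.7 for LUM (adjusted p = 0.0207). E5 library 3 and E7 library 3 were picked by these same expression values. Leaving them out narrows the spread within E5 and E7 and keeps 2 libraries of each, so p-values without them are descriptive only. TFAP2B, a marker of corneal endothelium, was present in all 6, at 214.08 to 280.53 FPKM. Keratocyte markers outside the proteoglycans had a summed level of 452, 327 and 512 CPM at E7 and 509, 473 and 299 CPM at E5, against 59.1 to 70.2 CPM at E3, but its members went different ways. ANGPTL7 stood at 1.01, 2.28 and 18.51 FPKM at E5 and 46.95, 26.38 and 1.27 FPKM at E7, and THY1, higher where ANGPTL7 was low, at 120.83, 132.07 and 66.41 and at 52.32, 57.79 and 118.14 FPKM. CD34 was lower in the cornea than at E3 (log2 fold change -3.83, adjusted p = 0.00225), and PTGDS and ALDH1A1 were not called.

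Between the crest at E3 and the cornea, 6 of the 8 proteoglycan transcripts rose and none fell. OGN, KERA and EPYC changed most, by log2 fold changes of 6.09 to 7.46, while FMOD and PRELP did not pass the test. OMD, EPYC and FMOD, at no more than 10 counts in any E3 library, passed the filter on low counts only with the corneal libraries. Their direction is therefore not independent of that filter. As labelled, KERA, LUM, DCN, OGN, EPYC and OMD were called higher at E5 than at E3, where "called" means an adjusted p under 0.05 in edgeR's quasi-likelihood test (Benjamini-Hochberg over all 11727 genes tested, as for every adjusted p below). Of all genes tested, 18.5% were called higher and 17.7% lower in that comparison. At E7, 5 of the 8 were called higher than at E3, the same ones without LUM, and none lower, against 17.3% of all genes higher and 16.4% lower. With the 6 corneal libraries together, 6 of 8 were called higher, against 20.9% of all genes higher and 20.8% lower, and the median log2 fold change of the 8 was 4.08, beside 0.03 over all genes. Without E5 library 3 and E7 library 3, KERA, LUM, DCN, OGN and EPYC were called higher in each of these comparisons and OMD in those at E5 and in the corneal libraries together, where 25.6% of all genes at E5, 21.6% at E7 and 26.2% in the combined contrast were called higher. These comparisons share the E3 libraries.

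**Figure D1:**
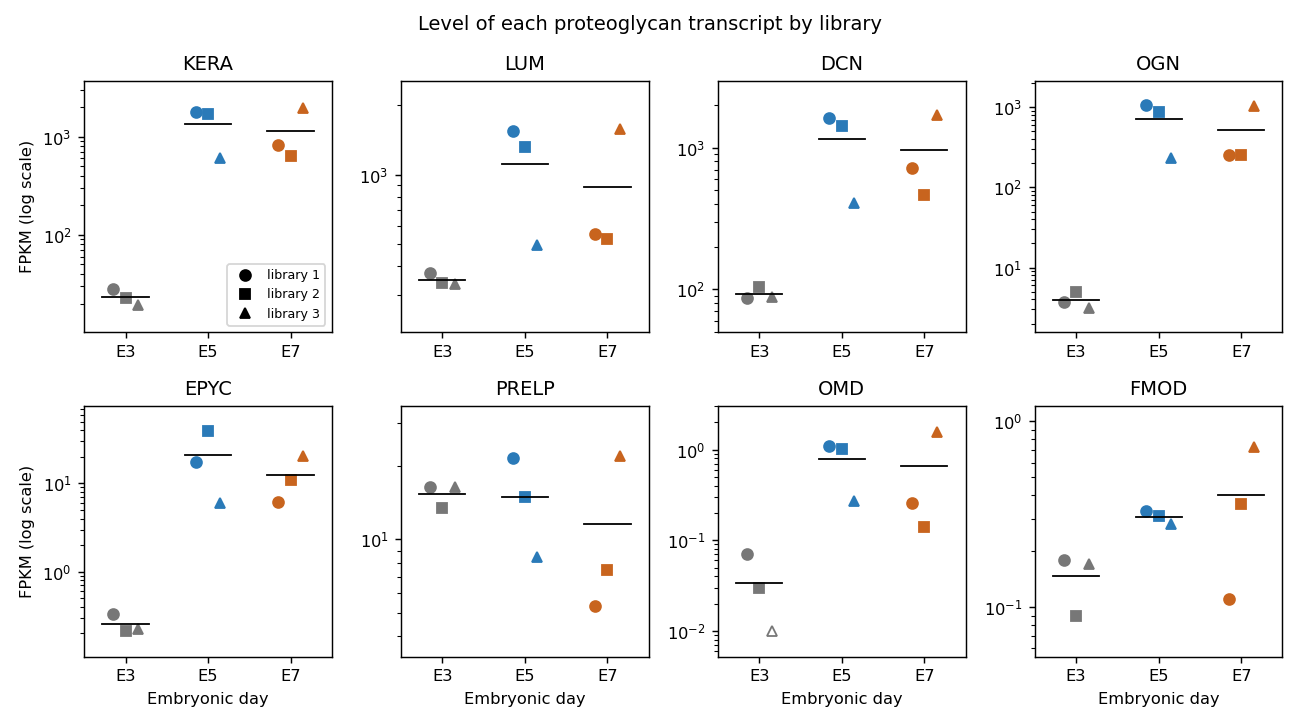
FPKM on a log scale for each of the 8 transcripts (panels) at E3, E5 and E7. Each point is a library, its shape gives the library number, and the line is the group mean. The open triangle of OMD is E3 library 3, where the missing entry was taken as 0, drawn at 0.01. Except for OMD and FMOD, the E3 points lie close together. At E5 and E7 the triangles, library 3, lie on the other side of the mean from the other libraries for KERA, LUM, DCN and OGN.

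Keratocan (KERA, gene ID 373995), the keratan sulfate proteoglycan after which keratocytes are often identified, stood at 28.46, 22.72 and 19.33 FPKM in E3 libraries 1, 2 and 3. FPKM is the authors' count scaled to entry length and to the library's mapped fragments, summed here over the entries of a gene. The E5 libraries held 1802.65, 1684.57 and 600.77 FPKM, and the E7 libraries 815.67, 632.11 and 1952.07 FPKM. The groups did not overlap between E3 and either corneal stage, and within each corneal stage library 3 stood apart from the other two. The mean rose from 23.5 ± 4.62 (SD, n = 3 here and for every group mean) to 1363 ± 662 FPKM at E5 and 1133 ± 715 FPKM at E7, which is 58.0 and 48.2 times the E3 mean; without E7 library 3 the log2 fold change at E7 went from 5.93 to 5.21. The log2 fold change of the 6 corneal libraries against E3 was 6.09 ± 0.66 (estimate ± SE, adjusted p = 0.000301). Among the named genes ranked by FPKM, KERA held places 2598, 3175 and 3669 at E3, places 6, 9 and 96 at E5 and places 82, 95 and 6 at E7.

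KERA reads were split by the authors' counting between an entry of 2455 bases and one of 5890 bases. The longer entry took 15.3, 16.8 and 10.8% of the KERA counts at E3. In the corneal libraries it took 33.6, 33.3 and 30.4% at E5 and 31.2, 30.9 and 33.0% at E7. These shares lay close together in the 6 corneal libraries, including those that differed in the level of KERA, and did not overlap with E3. This split was looked at after the values had been seen and was not tested. It is an estimate, since the 2 transcripts share sequence.

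Lumican (LUM, 417891), the other main keratan sulfate proteoglycan of the stroma, was already abundant in the crest, at 373.72, 339.76 and 335.95 FPKM. The E5 libraries held 1541.80, 1313.68 and 492.94 FPKM, and the E7 libraries 553.50, 524.75 and 1574.23 FPKM. All 6 corneal libraries lay above all 3 of E3, but E5 library 3 and E7 libraries 1 and 2 did so by less than the others. The rise at E5 was 1.87 ± 0.56 on the log2 scale (adjusted p = 0.0319), and that of the 6 corneal libraries together 1.69 ± 0.51 (adjusted p = 0.0289). At E7 the log2 fold change of LUM was 1.51 ± 0.55 (adjusted p = 0.0672). Without E5 library 3 and E7 library 3 it was 0.73 with an adjusted p of 0.000726. LUM was also called at E7 by DESeq2 (adjusted p = 0.0344), and by edgeR on E3 and E7 alone (0.0486) or without E5 library 3 (0.0322). With any other library left out it was not called at E7 (up to 0.232). The calls at E5 and on the 6 corneal libraries were lost when any E3 library, E5 library 1 or E5 library 2 was left out, at up to an adjusted p of 0.0997 and 0.0955.

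Decorin (DCN, 417892), which binds type I collagen and transforming growth factor beta, stood at 86.66, 103.09 and 88.02 FPKM at E3. Its corneal levels were 1604.69, 1419.27 and 406.95 FPKM at E5 and 717.52, 461.61 and 1694.22 FPKM at E7. No corneal library came near the E3 range. DCN rose in the 6 corneal libraries by 3.68 ± 0.63 on the log2 scale (adjusted p = 0.00263), by 3.83 ± 0.67 at E5 (adjusted p = 0.00374) and by 3.54 ± 0.66 at E7 (adjusted p = 0.00509), or 2.77 without E7 library 3.

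Osteoglycin (OGN, 374039), also called mimecan, had the largest fold change of the 8. Its level was 3.70, 5.02 and 3.14 FPKM at E3, and 1055.42, 873.47 and 234.17 FPKM at E5. In the E7 libraries it was 254.80, 255.74 and 1038.86 FPKM. E5 library 3 lay with E7 libraries 1 and 2 and far below the remaining 3 corneal libraries. The mean was 182 times the E3 mean at E5 and 131 times at E7, where the log2 fold change went from 7.20 to 6.11 without E7 library 3, and the log2 fold change was 7.46 ± 0.92 in the 6 corneal libraries (adjusted p = 0.000552). OGN is measured here by a single accession entry with fractional counts, and accession entries that could not be named may hold further transcripts of it.

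Epiphycan (EPYC, 417890), known as a dermatan sulfate proteoglycan of growth plate cartilage, was near the floor at E3, with 10, 7 and 8 counts or 0.33, 0.21 and 0.22 FPKM. It reached 17.38, 39.17 and 5.98 FPKM at E5 and 6.12, 11.07 and 20.49 FPKM at E7. The rise in the 6 corneal libraries was 6.18 ± 0.86 on the log2 scale (adjusted p = 0.000956). Its log2 fold change went from 6.56 to 5.72 at E5 without E5 library 2 and from 5.79 to 5.19 at E7 without E7 library 3. EPYC had a fold change like that of KERA at a level far below it, between 0.00750 and 0.0233 times the FPKM of KERA in the corneal libraries.

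Osteomodulin (OMD, 101747586), a keratan sulfate proteoglycan of bone, stayed low everywhere. It had 2, 1 and 0 counts in the E3 libraries, then 40, 36 and 8 at E5 and 4, 3 and 28 at E7, or at most 1.58 FPKM. With 3 counts at E3 and 119 in the cornea, the ratio of counts per library total was 24.0, with an exact 95% binomial interval of 8.02 to 118 that covers counting error only. OMD was called in each comparison with E3 (adjusted p = 0.0239 at E5, 0.033 at E7 and 0.0193 in the 6 corneal libraries). The call at E7 was lost without E5 library 3 and E7 library 3 (adjusted p = 0.0643), and also without E7 library 3 alone (0.128), any E3 library or E5 library 2. The call at E5 was lost without any E3 library or without E5 library 1 or 2, at up to 0.0828. In the 6 corneal libraries the log2 fold change of 4.48 became 3.59 without E7 library 3 and 5.34 without E3 library 1, and leaving out E3 library 2 or 3 ended the call (adjusted p up to 0.0735).

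Fibromodulin (FMOD, 395814), which modulates collagen fibrils in tendon and cartilage, was barely detected in any tissue. It stood at 0.18, 0.09 and 0.17 FPKM at E3, at 0.33, 0.31 and 0.28 FPKM at E5 and at 0.11, 0.36 and 0.73 FPKM at E7, from 3 to 22 counts per library. Its log2 fold change in the 6 corneal libraries was 1.39 ± 0.59 (adjusted p = 0.0914), and 0.0303 without E7 library 1. The E5 libraries lay above all of E3, while the E7 range overlapped it. PRELP (419933), which binds basement membrane to collagen, was the only one of the 8 with levels in the cornea on both sides of those at E3. It stood at 16.34, 13.42 and 16.37 FPKM at E3, at 21.55, 14.95 and 8.44 FPKM at E5 and at 5.31, 7.48 and 21.98 FPKM at E7. The difference of the 6 corneal libraries from E3 was -0.04 ± 0.48 on the log2 scale (adjusted p = 0.957). Without E5 library 3 and E7 library 3, PRELP was called lower at E7 than at E3 (log2 fold change -1.16, adjusted p = 0.00486, with 21.0% of all genes called lower) and was not called at E5 (0.46, adjusted p = 0.0919).

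**Figure D2:**
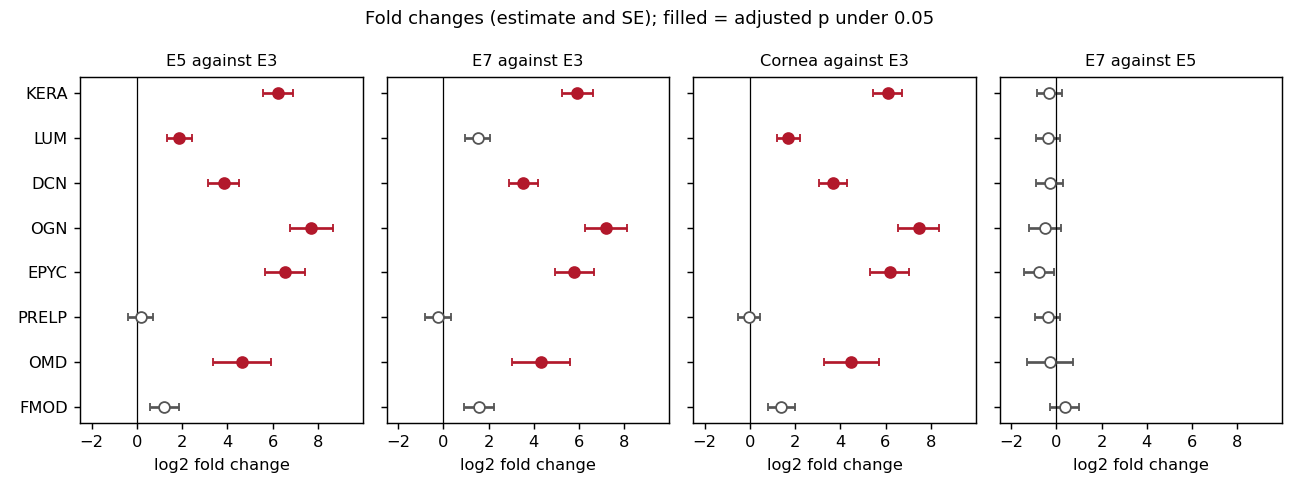
Log2 fold change (point) and its SE (bar) of each transcript in 4 comparisons; filled points have an adjusted p under 0.05. In the first 3 panels 6, 5 and 6 of the 8 transcripts are filled and lie to the right of 0, and in the last panel, E7 against E5, none is filled.

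The makeup of the proteoglycan pool differed between crest and cornea. Summed over the 8 genes, FPKM was 509.46, 484.34 and 463.20 at E3. It was 6044.9, 5346.4 and 1749.8 at E5 and 2353.3, 1893.3 and 6304.2 at E7. These transcripts took 0.102 to 0.113% of all counts of a library at E3 and 0.41 to 1.45% in the cornea. At E3, LUM made up 73.4, 70.1 and 72.5% of the summed FPKM, DCN 17.0 to 21.3% and KERA 4.17 to 5.59%. In the cornea, KERA made up 29.8 to 34.7%, DCN 23.3 to 30.5%, LUM 23.5 to 28.2% and OGN 10.8 to 17.5%. PRELP went from 2.77 to 3.53% of the pool to 0.226 to 0.482%. Within these bands, the share of OGN was higher and that of KERA lower in the libraries with the larger sums. In E5 libraries 1 and 2 and E7 library 3, OGN made up 16.3 to 17.5% and KERA 29.8 to 31.5%. In the other corneal libraries OGN made up 10.8 to 13.5% and KERA 33.4 to 34.7%. For DCN and LUM these 2 sets of libraries overlapped.

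**Figure D3:**
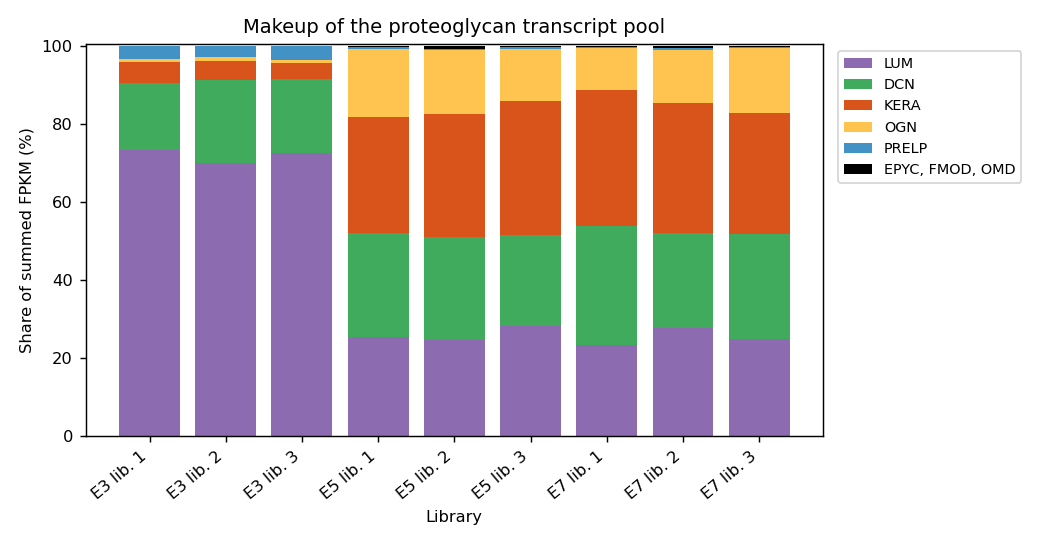
Share of each transcript in the summed FPKM of the 8, as stacked bars for each library on an axis from 0. LUM fills 70.1 to 73.4% of the E3 bars, and the 6 corneal bars are closer to each other than to those of E3, with KERA, DCN and LUM at 23.3 to 34.7% each and OGN at 10.8 to 17.5%.

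The order of levels, in FPKM, was LUM, DCN, KERA, PRELP, OGN, EPYC, FMOD and OMD at E3, and no neighbours in that order had overlapping ranges. At both E5 and E7 it was KERA, DCN, LUM, OGN, EPYC, PRELP, OMD and FMOD. KERA exceeded DCN in all 3 libraries of each stage, although the ranges overlapped. That lead rests on summing the 2 entries of KERA. The entry of 2455 bases alone lay below DCN in E5 libraries 1 and 2 and E7 libraries 1 and 3, and above it in E5 library 3 and E7 library 2. DCN and LUM changed places between libraries, and so did EPYC and PRELP, and OMD and FMOD. Ratios within a library do not depend on how libraries are scaled. The FPKM of LUM was 13.1, 15.0 and 17.4 times that of KERA at E3 and 0.679 to 0.855 times in the 6 corneal libraries. These ratios use the summed entries of KERA. Beside the entry of 2455 bases alone, LUM was higher in E5 library 1 (1541.80 against 1491.13 FPKM). In the other corneal libraries it was lower, by little in E5 library 3, E7 library 2 and E7 library 3. The mean log2 ratio of LUM to KERA was 3.91 ± 0.20 at E3 and -0.33 ± 0.12 (SD, n = 6) in the cornea, and that of OGN to KERA -2.55 ± 0.38 and -1.16 ± 0.34 (SD). Each ratio to KERA was tested between the 3 E3 and the 6 corneal libraries on log2(FPKM + 0.1), 7 ratios in all. Those of LUM, DCN, OGN, FMOD and PRELP differed (exact permutation test, two-sided, p = 0.0238 for each, the smallest that 3 against 6 libraries can give, adjusted p = 0.0278 over the 7). All 7 ratios share KERA, so these tests are not independent of each other or of the rise of KERA itself. OGN gained on KERA by 1.39 on the log2 scale, and LUM, DCN and PRELP lost against it, with differences of -4.24, -2.29 and -5.97. The FMOD ratio was lower in the cornea, also without a pseudocount, at 0.00396 to 0.00879 at E3 and 0.000135 to 0.00057 in the cornea. FMOD at E3 was close to the pseudocount and had few counts, so the size of that difference is uncertain. For OMD nothing is read from this test, since its E3 values of 0 to 0.07 FPKM lie below the pseudocount, and without one the E3 ratios (0.00246, 0.00132 and 0) lay on both sides of the corneal ones (0.000221 to 0.000809). The EPYC to KERA ratio differed by -0.30 (exact permutation p = 0.452, adjusted p = 0.452) on log2(FPKM + 0.1), and by -1.98 (exact permutation, adjusted p = 0.0238) with a pseudocount of 1, which is above the E3 values of EPYC.

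Compared as labelled, none of the 8 transcripts was called between E7 and E5, and no gene at all was called by edgeR (0.0% of 11727). At an unadjusted p under 0.05 there were 279 genes, and DESeq2 called 11 genes, none of them among the 8. The log2 fold changes of the 8 ran from -0.77 ± 0.67 for EPYC to 0.37 ± 0.63 for FMOD, with KERA at -0.31 ± 0.54, LUM at -0.37 ± 0.54, DCN at -0.29 ± 0.60 and OGN at -0.51 ± 0.70 (adjusted p of 0.971 or more for each). With E5 library 3 and E7 library 3 left out, 6 of the 8 were called lower at E7, where 11.5% of 11960 genes were called lower. Because those 2 libraries were picked by their expression, leaving them out widens the difference between the stages by itself. The adjusted p-values of this fit, on 2 libraries per stage, therefore do not test the stages. LUM was lower by -1.52 (adjusted p = 0.000183), OGN by -2.03 (0.000499), KERA by -1.40 (0.00283), DCN by -1.47 (0.0033), PRELP by -1.62 (0.00349) and EPYC by -1.82 (0.0205). OMD was at -2.52 (adjusted p = 0.0644) and FMOD at -0.51 (adjusted p = 0.633). Whether keratocan and its relatives differ between the stages thus depends on these 2 libraries.

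**Figure D4:**
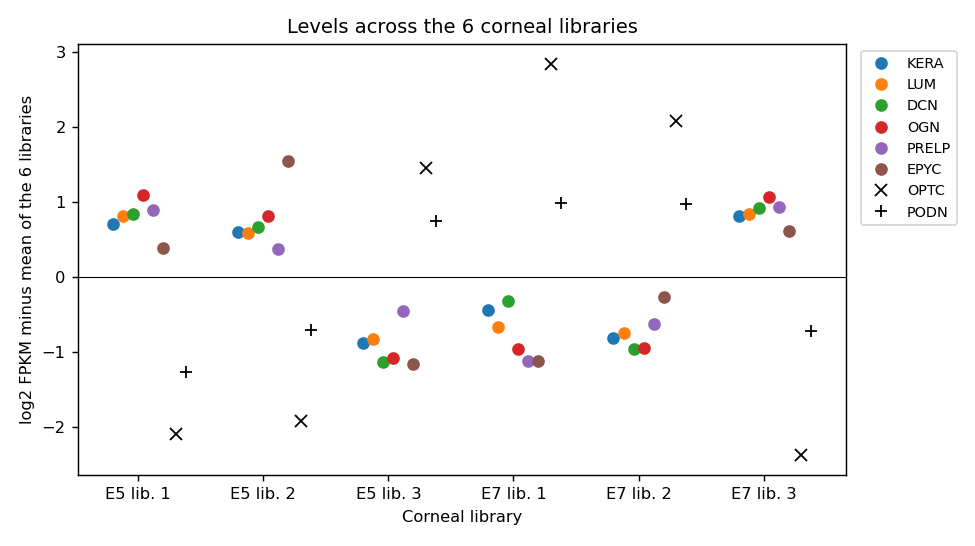
Log2 FPKM of 6 of the transcripts (dots) and of OPTC and PODN (crosses) in each corneal library, minus the mean of that gene over the 6 libraries. E5 libraries 1 and 2 and E7 library 3 hold the higher values of the 6 transcripts and the lower values of OPTC and PODN.

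Markers of other cell types varied over the same corneal libraries. Summed over 8 corneal epithelium markers, 8.32 to 14.9 CPM were found in the 3 libraries with the most KERA (E5 libraries 1 and 2, E7 library 3) and 114 to 274 CPM in the other 3 corneal libraries, against 20.2 to 22.3 CPM at E3, with KRT5 at or below 0.08 FPKM in all 9 libraries. That of 6 erythroid markers was 1.53 to 7.68 CPM in the former and 32.05 to 193.9 CPM in the latter, against 2846 to 3328 CPM at E3. Of 11 cartilage and tendon markers the sum was 969 to 1740 and 4295 to 9342 CPM, most of it COL2A1, which the early corneal epithelium is also known to make, but some of them ran with KERA. TNMD stood at 28.9 to 53.14 FPKM in the 3 libraries with the most KERA and at 2.86 to 3.41 FPKM in the other 3, MKX at 0.66 to 1.16 and 0.04 to 0.13 FPKM, and ACAN at 0.89 to 1.34 and 0 to 0.17 FPKM. The part of these cells in the levels of the proteoglycans was not tested.

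Other members of the family did not share one pattern. Of 7 further small leucine-rich proteoglycans with an entry, 3 rose in the 6 corneal libraries (BGN, ECM2 and PODN) and none fell, beside 20.9% of all genes called higher and 20.8% lower in this contrast, with a median log2 fold change of 2.19. BGN, ECM2 and PODN passed the filter on low counts only with the corneal libraries, so their direction is not independent of it. The gene named BGN in the table (415954), which may be biglycan or, by its place, asporin, had 1 count in the 3 E3 libraries and 825 in the cornea, which per library total is 499 times as much (95% binomial interval 89.4 to 19700, counting error only) with an adjusted p of 0.00393. It stood at 6.34, 4.69 and 0.56 FPKM at E5 and at 0.77, 0.62 and 4.53 FPKM at E7, with library 3 again apart; its log2 fold change of 8.36 became 7.59 without E7 library 3 and 9.97 without E3 library 3. PODN, podocan, named after its values were seen, had 0 counts at E3 and was at least 497-fold higher in the cornea against a floor of 3 counts over the E3 group (adjusted p = 0.000902). Its FPKM of 1.69, 2.48 and 6.83 at E5 and 8.04, 7.96 and 2.46 at E7 was higher in the 3 corneal libraries where KERA was lower. OPTC, opticin, a vitreous and ciliary body protein whose gene lies next to PRELP, stood at 0.46, 0.57 and 0.99 FPKM at E3, at 0.33, 0.37 and 3.86 FPKM at E5 and at 10.11, 5.94 and 0.27 FPKM at E7 (log2 fold change in the cornea 2.19, adjusted p = 0.166). ECM2 rose in the cornea by 5.08 (adjusted p = 0.00232), or 4.49 without E3 library 2.

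In the RefSeq table the genes lie in 3 neighbourhoods. EPYC, KERA, LUM and DCN follow one another with no other protein-coding gene between them, as do ECM2, BGN, OMD and OGN, and FMOD, PRELP and OPTC. Likeness of 2 profiles was measured as the root mean square difference of their centred log2(FPKM + 1) values over the 9 libraries, where 0 is identical. Among the 28 pairs, the 8 within a neighbourhood had a median of 1.05, with a range of 0.50 to 2.87, and the 20 between neighbourhoods a median of 1.59, with a range of 0.35 to 3.33. The ranges overlapped widely, and the added 1 FPKM compresses low values, those of FMOD and OMD throughout and of EPYC at E3. KERA was closer to OGN of another neighbourhood (0.62) than to its neighbours DCN (1.08) and LUM (1.98); its distance to EPYC (1.03) depends on the pseudocount, since EPYC had a fold change like that of KERA. Among 6205 genes at 10 FPKM or more in at least 3 libraries, the 3 most like KERA were PTN (0.48), MMP27 (0.55) and HTRA1 (0.59), and KERA itself was the gene most like OGN, followed by FNDC1 (0.75) and COL6A2 (0.88). PTN, pleiotrophin, a secreted growth factor, ran from 5.05 to 6.77 FPKM at E3 and from 107.61 to 247.14 FPKM in the cornea. The 3 most like DCN were THBS2 (0.18), COL1A2 (0.21) and SXPH (0.21), and those most like LUM were ADAMTS3 (0.17), which cleaves the procollagen propeptide, FKBP10 (0.17), a chaperone of procollagen, and EPHA5 (0.18). Of these like genes, MMP27, FNDC1, COL6A2 and SXPH stood below the added 1 FPKM at E3, so their distances depend on it. MMP27 ran from 0.06 to 0.07 FPKM at E3 and from 16.46 to 38.78 FPKM in the cornea.

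Most of the tested genes listed for keratan sulfate chain synthesis were also higher in the cornea. FUT8, ST3GAL1, ST3GAL2 and CHST7 are among them, and their part in these chains was not tested. Of 12 keratan sulfate genes tested, 9 rose in the 6 corneal libraries and none fell (all genes: 20.9% higher, 20.8% lower), with a median log2 fold change of 1.38 beside 0.03 over all genes. B3GNT7, which adds N-acetylglucosamine to the growing chain, had 0.69, 0.64 and 0.46 FPKM at E3. It had 47.05, 35.41 and 8.48 FPKM at E5 and 8.66, 7.61 and 51.41 FPKM at E7, so library 3 stood apart as it did for KERA (log2 fold change in the cornea 5.65, adjusted p = 0.00343, and 4.87 without E7 library 3). CHST1, which sulfates galactose, rose by 4.04 (adjusted p = 0.000481), and CHST7, another sulfotransferase, by 3.12 (adjusted p = 5.28e-05). CHST6, whose human counterpart sulfates corneal keratan sulfate, was present at E3 at 16.35, 11.35 and 11.26 FPKM. It stood at 88.62, 69.67 and 28.55 FPKM at E5 and at 44.25, 29.13 and 84.89 FPKM at E7 (2.32, adjusted p = 0.00669). The galactosyltransferase B4GALT1 rose by 2.44 (adjusted p = 0.00195).

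Genes of the linker and of chondroitin or dermatan sulfate chains changed by less. Of 17 tested, 9 rose and none fell, against 20.9% of all genes higher and 20.8% lower, with a median of 0.69. The largest among those with a mean of 5 FPKM or more were CHPF (1.34, adjusted p = 0.000755) and CHPF2 (1.24, adjusted p = 0.000167), both polymerising factors, and the sulfotransferases CHST13 (1.18, adjusted p = 0.0369; up to 0.125 with 1 library left out) and CHST12 (0.91, adjusted p = 0.00803). Of 9 genes for supply of sulfate and sugar donors, 6 rose and 1 fell, again beside 20.9% of all genes higher and 20.8% lower. PAPSS1 and PAPSS2, which make the sulfate donor, rose by 1.26 (adjusted p = 0.000158) and 2.23 (adjusted p = 0.0158; up to 0.0639 with 1 library left out), and the donor's Golgi transporters SLC35B2 and SLC35B3 by 0.49 (adjusted p = 0.00529) and 0.79 (adjusted p = 0.00167). UGDH, which makes the glucuronic acid precursor of chondroitin chains, fell from between 61.82 and 65.46 FPKM to between 28.79 and 45.05 FPKM (-0.61, adjusted p = 0.036; up to 0.0944 with 1 library left out).

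The collagens tested were fibril-forming and fibril-associated ones and the type VI chains COL6A1, COL6A2 and COL6A3. Of these 10, 9 rose and none fell, where 20.9% of all genes rose and 20.8% fell, with a median of 3.77. COL6A2 rose by 9.66 (adjusted p = 0.00395), COL6A1 by 6.62 (adjusted p = 0.005), COL14A1 by 5.24 (adjusted p = 0.00848) and COL5A1 by 4.51 (adjusted p = 0.00254). Leaving out E7 library 3 gave 8.23 for COL6A2 and 5.49 for COL6A1, and leaving out E5 library 3 gave 4.41 for COL14A1. COL5A1, a chain of the type V collagen that nucleates thin corneal fibrils, stood at 481.59, 334.08 and 109.91 FPKM at E5 and at 127.43, 105.13 and 482.72 FPKM at E7. COL14A1, a collagen on the fibril surface, ran the other way, at 10.10, 4.83 and 60.90 FPKM at E5 and 161.69, 74.94 and 11.17 FPKM at E7. COL1A1 had no entry. Without E5 library 3 and E7 library 3, the contrast of the remaining 4 corneal libraries with E3 had 9 of 12 keratan sulfate genes, 11 chondroitin or dermatan sulfate genes, 6 donor genes and 9 collagens higher, against 26.2% of all genes.

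**Figure D5:**
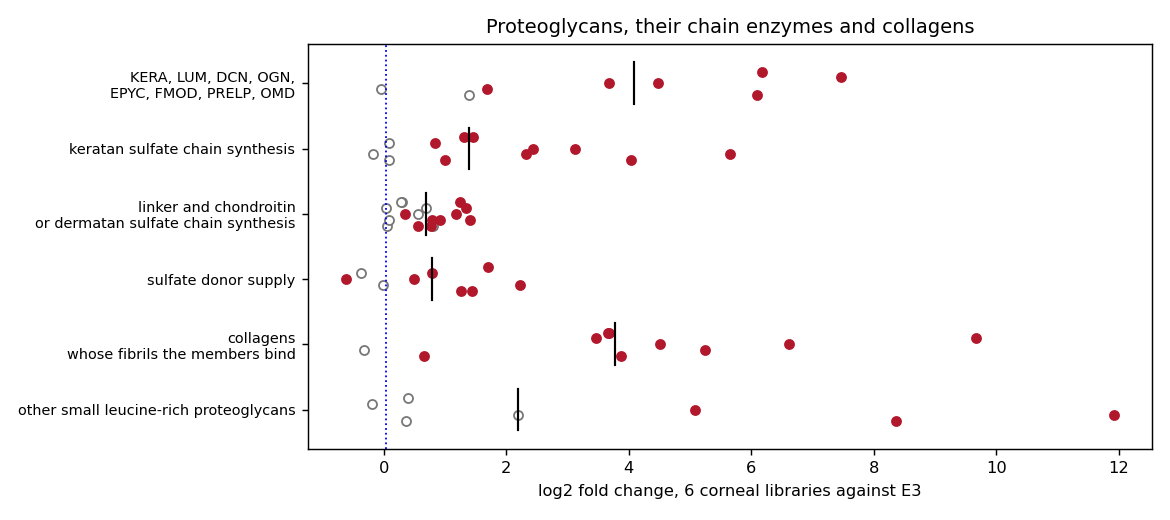
Log2 fold change of the 6 corneal libraries against E3 for each tested gene (points; filled for an adjusted p under 0.05) in 6 groups, with the group's median as a bar and the median of all genes, 0.03, as a dotted line. The medians of the 8 proteoglycans (4.08) and the collagens (3.77) lie farthest to the right, the point at the right edge is PODN, whose fitted value rests on 0 counts at E3, and the chondroitin or dermatan sulfate genes (0.69) nearest to the dotted line.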

How the data were processed

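The authors deposited an expected count and an FPKM per entry and library; per the file headers both are per gene or transcript. The submitters' processing notes name HISAT, Bowtie2 and the build galGal5. Whether counting used strand, with which program, versions and annotation, is not given in the sources at hand. Entries missing from a library were taken as 0 (lowest listed FPKM 0.01). Of 46855 entries, 23918 were named from a RefSeq table of assembly GRCg7b, another build, so no coordinates are given. They hold 76.5 to 78.5% of each library's counts, and all entries set the library sizes and CPM. In that table the gene CENPP spans OGN and OMD, and non-coding genes overlap KERA, EPYC, DCN, FMOD and PRELP, so reads may be shared.

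Expected counts were summed per gene and rounded, and edgeR 4.0.16 was run under R 4.3.3 (TMM, filterByExpr, quasi-likelihood F-test, all 9 libraries, no covariate); the SE is the log2 fold change divided by the square root of F. The procedure was tested on simulated data. The simulated counts held no library that went against its label, so that test does not cover this feature of the data. No replicate pair agreed within sampling noise (chi-square per degree of freedom 9.73 to 143.54). The floor of 3 counts is 0.129 to 0.304 CPM; floors and intervals cover counting error only. Alternatives used limma 3.58.1, DESeq2 1.42.0, other scaling and filters, and fits without libraries.

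Members, lists and tests were chosen with earlier results of these data known. All members were named. From each of 5 lists, up to 4 called genes with the largest change in the 6 corneal libraries and a mean FPKM of 5 or more were named, with BGN, OPTC, CHST6, B3GNT7, B4GALT1, CHST1, PAPSS2 and COL1A1 in any case, and the 3 genes most like KERA, LUM, DCN and OGN; PODN, TFAP2B and other cell type markers were added.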

Additional observations from a re-analysis of the deposited data

How the results depend on the processing

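KERA, DCN, OGN and EPYC kept their calls and direction against E3 in all 3 comparisons under each of 22 alternatives. Scaled by library size alone, the median log2 fold change of all genes was -0.13 in the 6 corneal libraries against E3 and -0.14 at E5, against 0.03 with TMM. PRELP, never called as labelled, changed sign at E5 with library size alone (-0.04), limma on log2(FPKM + 1) (-0.12, also without filter) and on log2(FPKM + 0.1) (-0.13); with 1 library left out it ran from -0.22 to 0.46 at E5, from -1.16 to 0.12 at E7 and from -0.50 to 0.14 in the 6 corneal libraries. Between E7 and E5, leaving out 1 library gave -1.06 to 0.06 for DCN, -1.37 to 0.07 for EPYC, -0.43 to 0.81 for FMOD, -1.03 to 0.01 for KERA and -2.10 to 0.21 for OMD, and FMOD was at -0.51 without library 3 of both groups. Leaving both of these out moved the genes called between E7 and E5 from 0 to 2727, with 6 of the 8 proteoglycans lower, and gave 1 lower at E7 than at E3. Between E7 and E5 DESeq2 called 11 genes, limma 4 with a pseudocount of 0.1 and 3 without filter, and leaving out 1 library 0 to 1. Leaving out 1 library gave 2770 to 4796 calls at E5 and 2578 to 4478 at E7 against E3; the lowest came without E3 replicate 2 in both. The ratios to KERA gave 6 calls, that of OMD included, as tested and without any 1 corneal library, and 0 without both of those libraries or without any 1 E3 library, since 3 against 4 libraries cannot go below 0.0571 nor 2 against 6 below 0.0714; their directions held.

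Libraries of the same replicate number showed no pairing between groups (correlations of their deviations from the group means from -0.772 to 0.084). Those means are pulled by E5 library 3 and E7 library 3, so this check could miss a pairing. A fit with the replicate number as block called KERA, DCN, OGN and EPYC higher in each comparison with E3. Over all genes that fit called 3124 of 11727 at E5 and 2893 at E7, in either direction. LUM (adjusted p = 0.0805 at E5 and 0.0749 in the 6 corneal libraries) and OMD (0.0659, 0.112 at E7 and 0.0603) were no longer called. Limma on log2(FPKM + 1) called KERA, DCN, OGN and EPYC higher in each comparison with E3. It called LUM at E5 (adjusted p = 0.045) and in the 6 corneal libraries (0.0394), and OMD in none (0.0737 to 0.174). FMOD did not pass the FPKM filter of that fit. Over all genes it called 4437 at E5 and 4107 at E7, in either direction and among another set of tested genes than in edgeR. The share of all genes called higher is not given for the block and limma fits. With limma on log2(FPKM + 0.1), LUM was not called at E5 (0.0534). Limma on log2(FPKM + 1) without filter called LUM neither at E5 (0.0646) nor in the 6 corneal libraries (0.0567). Depth limits FMOD and OMD, with at most 22 and 40 counts in a library.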
